A study of Homo sapiens with 6 samples.

Results

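The regions described here are the histone gene clusters of human chromosome 6. They were taken by position as 26.01 to 26.29 Mb and 27.77 to 27.87 Mb of chromosome 6 in hg19, on both strands, and a site belonged to them where its midpoint fell inside. Of 464799 RNA binding sites in 6 deposited lists, 445 lay in these clusters. The lists come from PAR-CLIP, in which 4-thiouridine built into RNA is crosslinked by ultraviolet light to a bound protein, and the protein is then immunoprecipitated and its RNA sequenced. Each list is 1 library, so no replicate shows how far repeat experiments would differ. No p-value is given, and every interval covers counting error at 95% only.

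All 6 libraries came from FlpIn T-REx HEK293 cells, a human embryonic kidney line with a single recombination site for stable, inducible transgenes. The groups were FXR1, FXR2, I304N FMR1 isoform 7, wild-type (WT) FMR1 isoform 7, I304N FMR1 isoform 1 and WT FMR1 isoform 1, each expressed as a FLAG-HA-tagged transgene. I304N replaces an isoleucine in a KH domain, an RNA-binding fold, of FMRP, the protein made from FMR1. FXR1 and FXR2 are its paralogs. In every group the transgene was switched on for 16 h with 1 µg/ml doxycycline while cells took up 100 µM 4-thiouridine. Crosslinking used light of 365 nm at a dose of 0.15 J per square cm, RNA was trimmed with RNase T1 for 15 min at 22 °C, and complexes were pulled down with an anti-FLAG antibody. The tagged proteins come from a transgene promoter, and the endogenous FMR1, FXR1 and FXR2 of the cells are not described in the labels.

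Histones package DNA: H2A, H2B, H3 and H4 form the core of the nucleosome, and H1 binds the linker DNA between nucleosomes. The replication-dependent histone genes are made chiefly in S phase, and their mRNAs are short, mostly without introns, and end in a conserved stem-loop bound by SLBP in place of a poly(A) tail. Many H2A and H2B genes lie head to head, so that they are transcribed away from each other. GENCODE release 29 lists 55 protein-coding genes with HIST1H symbols on chromosome 6, which fall into 4 runs when split at gaps over 200 kb. The 2 longest runs hold 48 genes, 22 on the plus strand and 26 on the minus strand: 6 of H1, 9 of H2A, 12 of H2B, 10 of H3 and 11 of H4. Of these 48 genes, 47 have a transcript of 1 exon, and the transcripts have a median length of 411 nt with quartiles of 391.5 and 652.5 nt. The median length was longest for H1, at 673.5 nt, and shortest for H4, at 312 nt. That annotation is on another build, so it gives names, strands and lengths only, and no site below is assigned to a gene. The rule takes any RNA made at these positions, so some sites may lie in other genes. Histone genes of a family are near-identical in places, and how reads that match several copies were treated is not given in the sources used here.

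The lists differed in length from 9017 sites for FXR1 to 132219 for I304N isoform 1, with 34521 for FXR2, 88644 for I304N isoform 7, 78495 for WT isoform 7 and 121903 for WT isoform 1. Shares of a list are therefore used for comparisons. The lists hold no read numbers, so weakly and strongly covered sites weigh the same, and list length, sequencing depth and the calling of sites cannot be told apart from binding.

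The clusters held 2 sites of FXR1, 45 of FXR2, 106 of I304N isoform 7, 87 of WT isoform 7, 126 of I304N isoform 1 and 79 of WT isoform 1. As a share of the list this was 0.0222% for FXR1 (exact Clopper-Pearson interval 0.00269% to 0.0801%) and 0.130% for FXR2 (0.0951% to 0.174%). It was 0.120% for I304N isoform 7 (0.0979% to 0.145%) and 0.111% for WT isoform 7 (0.0888% to 0.137%). For isoform 1 it was 0.0953% with I304N (0.0794% to 0.113%) and 0.0648% for WT (0.0513% to 0.0808%). FXR1 thus had the lowest share and FXR2 the highest, but neither end of this order was set apart from all other libraries. The interval of FXR2 overlapped those of both isoform 7 libraries and of I304N isoform 1. The interval of FXR1 overlapped those of both isoform 1 libraries.

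**Figure D1:**
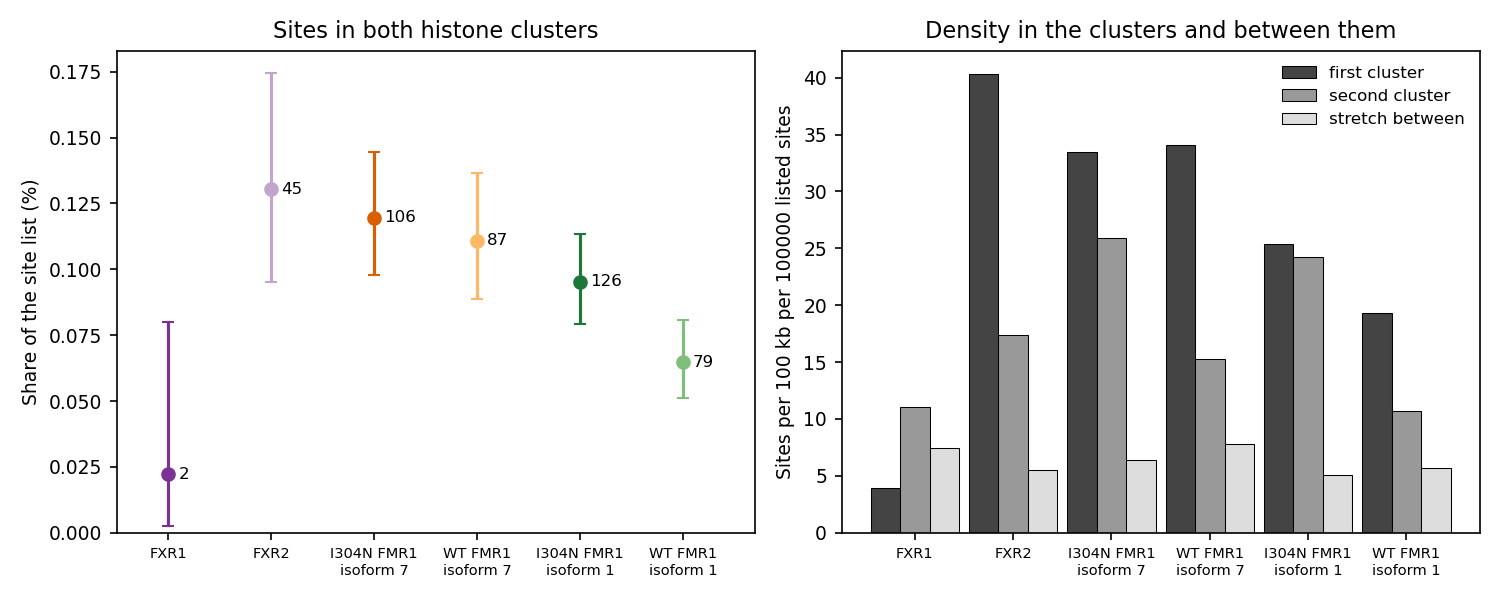
Left: share of each site list (%) that lies in the histone clusters, with exact 95% Clopper-Pearson intervals and the number of sites beside each point; the share of FXR1 rests on 2 sites. Right: sites per 100 kb per 100000 listed sites in the first cluster, the second cluster and the stretch between them, 1 library per bar; the first cluster stands above the stretch between in every library except FXR1.

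The first cluster spans 280 kb, the second 100 kb and the stretch between them 1480 kb. Scaled to 100000 listed sites, the first cluster held 40.3 sites per 100 kb in FXR2, 33.4 in I304N isoform 7, 34.1 in WT isoform 7, 25.4 in I304N isoform 1 and 19.3 in WT isoform 1. The stretch between held 5.48 sites per 100 kb in FXR2, 6.40 in I304N isoform 7, 7.83 in WT isoform 7, 5.06 in I304N isoform 1 and 5.65 in WT isoform 1. In these 5 libraries both clusters were denser than the stretch between, which itself contains a run of 5 histone genes in the GENCODE order. FXR1 ran the other way in the first cluster, with 3.96 sites per 100 kb on that scale against 7.49 in the stretch between, from 1 site and 10 sites. In the second cluster FXR1 had 1 site as well.

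The second cluster was less evenly divided than the first. It held 6 sites of FXR2, 23 of I304N isoform 7, 12 of WT isoform 7, 32 of I304N isoform 1 and 13 of WT isoform 1. On its minus strand lay 7 sites in each I304N library, against 1 site in each WT library, and 1 site of FXR2. On its plus strand lay 5 sites of FXR2, 16 of I304N isoform 7, 11 of WT isoform 7, 25 of I304N isoform 1 and 12 of WT isoform 1. Over both clusters the plus strand held between 46.7% and 53.2% of the sites of these 5 libraries, so neither strand dominated.

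Sites did not spread over the clusters but lay in short clumps. Joining sites of all 6 libraries that lay on the same strand with gaps of at most 200 nt gave 41 clumps, 29 in the first cluster and 12 in the second. Of these, 15 had only 1 or 2 sites, and 24 had at least 5. The 24 clumps, 11 on the plus strand and 13 on the minus strand, held 417 of the 445 sites, or 93.7%. Their spans ran from 240 to 755 nt, with a median of 362.5 nt and quartiles of 323 and 419.75 nt. Over the whole genome, 23598 clumps with at least 5 sites had a median span of 240 nt and wider quartiles, 125 and 500 nt. Of the 24 spans, 21 lay between the shortest and longest histone transcript, 297 and 2411 nt. That range is wide, and the share of all clumps of the genome inside it was not counted. The median span lay below the lower quartile of transcript length, 391.5 nt. A span runs only from the first to the last site.

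**Figure D2:**
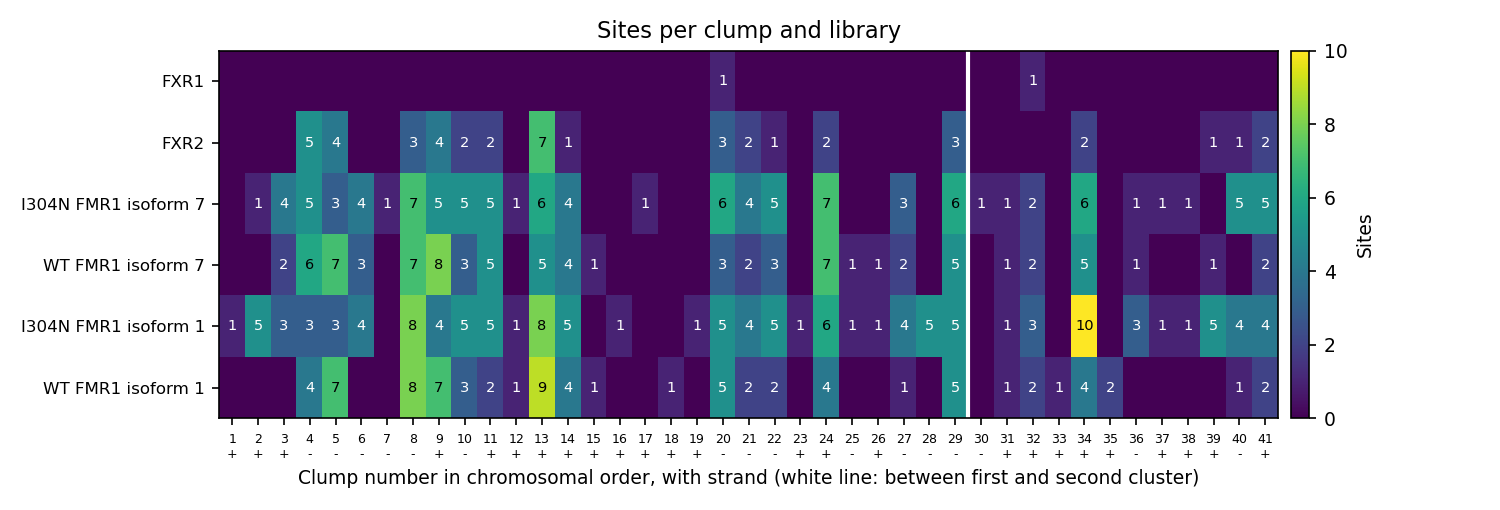
Number of sites in each of the 41 clumps of the histone clusters (columns, in chromosomal order with strand) for each of the 6 libraries (rows); the colour gives the number of sites, from 0 to 10. Of the 17 columns filled in FXR2, 15 are filled in all 4 FMR1 libraries, and FXR1 has 1 site in each of clumps 20 and 32.

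The same clumps carried sites in most libraries. A site in at least 5 of the 6 libraries was found in 16 clumps, or 39.0%, where 8.78% of all 92142 clumps of the genome had one. Those 16 clumps held 353 sites, or 79.3% of those in the clusters. All 4 FMR1 libraries had a site in 18 of the 41 clumps, or 43.9%, against 16.0% genome-wide. The gap was smaller among clumps with at least 5 sites: all 4 FMR1 libraries were present in 17 of 24, or 70.8%, against 57.2% of such clumps genome-wide. FXR2 was present in 17 of those 24 clumps, or 70.8%, against 47.8% genome-wide, and FXR1 in 2, or 8.33%, against 15.0%.

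The fullest clump was number 13, chr6:26156560-26157314 on the plus strand, which was also the longest at 755 nt. It had no FXR1 site, 7 of FXR2, 6 of I304N isoform 7, 5 of WT isoform 7, 8 of I304N isoform 1 and 9 of WT isoform 1. FXR2, with the second shortest list, placed more sites here than in any other clump. Clump 8, chr6:26056041-26056691 on the minus strand, spanned 651 nt and had 3 sites of FXR2, 7 in each isoform 7 library and 8 in each isoform 1 library. I304N and WT were level there in both isoforms. Clump 34, chr6:27777727-27778302 on the plus strand, was the fullest of the second cluster. It had 2 sites of FXR2, 6 of I304N isoform 7, 5 of WT isoform 7, 10 of I304N isoform 1 and 4 of WT isoform 1, and none of FXR1.

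Clump 9, chr6:26104172-26104518 on the plus strand, had 4 sites of FXR2, 5 of I304N isoform 7, 8 of WT isoform 7, 4 of I304N isoform 1 and 7 of WT isoform 1. Clump 5, chr6:26031833-26032325 on the minus strand, had 4 sites of FXR2, 3 in each I304N library and 7 in each WT library. In both of these clumps each WT library had more sites than its I304N counterpart. Clump 4, chr6:26027132-26027503 on the minus strand, had 5 sites of FXR2, 5 of I304N isoform 7, 6 of WT isoform 7, 3 of I304N isoform 1 and 4 of WT isoform 1. Clump 24, chr6:26204851-26205220 on the plus strand, had 2 sites of FXR2, 7 in each isoform 7 library, 6 of I304N isoform 1 and 4 of WT isoform 1. Clump 29, chr6:26285392-26285743 on the minus strand and the last of the first cluster, had 3 sites of FXR2, 6 of I304N isoform 7 and 5 in each of the other 3 FMR1 libraries. Clump 14, chr6:26158371-26158709 on the plus strand, had 1 site of FXR2, 4 in each isoform 7 library, 5 of I304N isoform 1 and 4 of WT isoform 1. Clump 22, chr6:26199116-26199479 on the minus strand, had 1 site of FXR2, 5 in each I304N library, 3 of WT isoform 7 and 2 of WT isoform 1. Clumps 4, 5, 9, 14, 22, 24 and 29 had no FXR1 site.

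Across the 16 clumps shared by at least 5 libraries, FXR2 had 0 to 7 sites per clump with a median of 2. Both I304N libraries and WT isoform 7 had a median of 5, with ranges of 2 to 7 for I304N isoform 7, 2 to 8 for WT isoform 7 and 3 to 10 for I304N isoform 1. WT isoform 1 had 2 to 9 with a median of 4. These clumps held 95.6% of the FXR2 sites in the clusters, 76.4% of those of I304N isoform 7, 85.1% of WT isoform 7, 65.9% of I304N isoform 1 and 88.6% of WT isoform 1. The I304N libraries therefore had a larger share of their sites outside the shared clumps than the WT library of the same isoform. The 16 clumps were chosen from these same counts, and the I304N libraries had more sites in the clusters. How far that choice sets the difference was not tested.

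Among the 24 clumps with at least 5 sites, 2 pairs had a minus-strand clump followed within 1000 nt by a plus-strand clump, the arrangement of head-to-head genes. Clump 10, chr6:26123810-26124132, and clump 11, chr6:26124412-26124877, stood 279 nt apart. Clump 10 had 2 sites of FXR2, 5 in each I304N library and 3 in each WT library. Clump 11 had 2 sites of FXR2, 5 of I304N isoform 7, 5 of WT isoform 7, 5 of I304N isoform 1 and 2 of WT isoform 1. Clump 40, chr6:27860572-27860951, and clump 41, chr6:27861213-27861634, stood 261 nt apart. Clump 40 had 1 site of FXR2, 5 of I304N isoform 7, none of WT isoform 7, 4 of I304N isoform 1 and 1 of WT isoform 1. Clump 41 had 2 sites of FXR2, 5 of I304N isoform 7, 2 of WT isoform 7, 4 of I304N isoform 1 and 2 of WT isoform 1. Both members of the first pair were filled in all 4 FMR1 libraries, whereas the minus-strand member of the second pair was nearly empty in both WT libraries. In the GENCODE order, 6 neighbouring pairs of H2A and H2B genes in the 2 longest runs lie head to head.

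The comparison of I304N with WT asks how a change in a KH domain goes with sites on these RNAs. In isoform 1 the share of sites in the clusters was 1.47 times as high with I304N as in WT (exact conditional interval 1.10 to 1.97), from 126 and 79 sites. In isoform 7 it was 1.08 times as high (0.805 to 1.45), from 106 and 87 sites. In the stretch between the clusters the same ratios were 0.895 (0.672 to 1.19) for isoform 1, and 0.817 (0.600 to 1.11) for isoform 7. The second cluster had the higher ratios, 2.27 in isoform 1 (1.16 to 4.71) and 1.70 in isoform 7 (0.811 to 3.74), while the first had 1.31 (0.948 to 1.83) and 0.980 (0.708 to 1.36). Whether the isoforms differ in this ratio was not tested. The value for isoform 1 depended on what was counted: it was 2.29 when libraries were scaled by the median of ratios over 50 kb windows, and 1.09 when each clump was counted once.

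**Figure D3:**
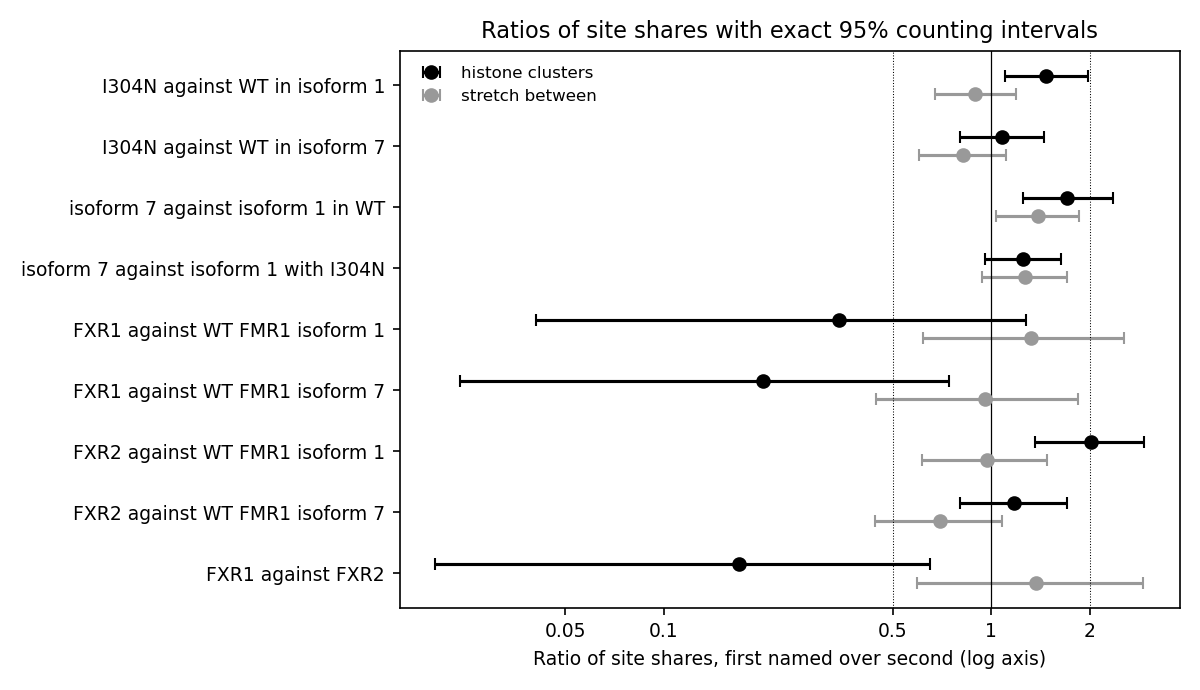
Ratio of the share of sites (log axis, the library named first over the library named second) in the histone clusters and in the stretch between them, with exact 95% conditional intervals; dotted lines mark 2-fold. In the clusters the intervals lie above 1 for I304N against WT in isoform 1, isoform 7 against isoform 1 in WT and FXR2 against WT isoform 1, and below 1 for FXR1 against WT isoform 7 and against FXR2.

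The number of single clumps past 2-fold between I304N and WT depended on the filter for low counts. Site numbers were scaled to 100000 per list, 1 was added, and clumps with a mean of at least 2 scaled sites over the libraries compared were read, which left 15 of the 41 clumps in isoform 1 and 20 in isoform 7. In isoform 1, 1 of 15 clumps was at least 2-fold higher, number 34 (log2 ratio 1.00), where 16.7% of all clumps were. In the same comparison 1 of 15 was at least 2-fold lower, number 5 (log2 ratio -1.04), where 28.3% of all clumps were. In isoform 7, 1 of 20 was higher, number 40, where 16.8% of all clumps were. Clump 40, with 5 sites in I304N and none in WT, was read through its I304N count alone. Its ratio was 1.48 when 3 sites are allowed for the count of 0, a value that leaves out the counting error of the 5 sites. In isoform 7 there was also 1 of 20 lower, again number 5 (log2 ratio -1.18), where 11.0% of all clumps were. Clump 34 likewise passed the filter through I304N alone, and clump 5 through WT alone in both isoforms. Each clump past 2-fold was thus read through the library where it was higher. The median log2 ratio was 0.16 in isoform 1 and 0.08 in isoform 7, against -0.11 and 0.04 over all clumps of those comparisons. With no filter, all 41 clumps are read: 9 were then higher in isoform 1, or 22.0% against 10.5% of all clumps, and 2 lower, or 4.88% against 6.42%. In isoform 7, 8 were higher, or 19.5% against 19.3%, and 5 lower, or 12.2% against 23.3%. All of these 8 except clump 40, and all of these 5 except clump 5, had 1 site against none. For 1 I304N site against none the log2 ratio is 1.09 in isoform 7 but 0.81 in isoform 1. The numbers of the 2 isoforms without a filter therefore cannot be set side by side. The counting intervals of the ratios for the clumps named here include 1. Clump 5 had a ratio of 0.395 (0.0659 to 1.73) for isoform 1 and 0.380 (0.0633 to 1.66) for isoform 7. Clump 34 had 2.30 (0.665 to 10.1) for isoform 1. For clump 40 in isoform 7 the interval began at 0.811 and had no upper bound.

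A set of smaller clumps had sites in other libraries and none in WT isoform 1. Of the 24 clumps with at least 5 sites, 6 were without a WT isoform 1 site: numbers 2, 3, 6, 28, 36 and 39, of which 6, 28, 36 and 39 were picked out after their values were seen. That is 25% of the clumps of this size, against 17.2% genome-wide. Over all 41 clumps, 14 had I304N isoform 1 but no WT isoform 1 site, or 34.1% against 31.2% genome-wide, and 4 the reverse, or 9.76% against 17.1%. The 6 clumps, chosen for having no WT isoform 1 site, held 1 site of FXR2, 10 of I304N isoform 7, 7 of WT isoform 7 and 25 of I304N isoform 1. Clump 28, chr6:26250405-26250807 on the minus strand, had 5 sites, all of I304N isoform 1. Clump 2, chr6:26020734-26021152 on the plus strand, had 5 sites of I304N isoform 1 and 1 of I304N isoform 7, and none in either WT library. Clump 3, chr6:26021906-26022228 on the plus strand, had 4 sites of I304N isoform 7, 2 of WT isoform 7 and 3 of I304N isoform 1. The I304N isoform 1 list is the longest of the 6, and the part of list length in these counts was not tested.

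The comparison of isoform 7 with isoform 1 gave a share 1.71 times as high in WT (1.25 to 2.35) and 1.25 times as high with I304N (0.960 to 1.64). The stretch between the clusters had similar ratios, 1.39 in WT (1.03 to 1.86) and 1.27 with I304N (0.935 to 1.71). Over the rest of chromosome 6 they were below 1, at 0.891 in WT (0.857 to 0.926) and 0.970 with I304N (0.933 to 1.01). In WT, 14 of the 16 clumps read lay above a log2 ratio of 0, with a median of 0.52, where the median of all clumps was 0.04. Of the 16, 3 were at least 2-fold higher, where 14.6% of all clumps were: clump 11 (log2 ratio 1.48), clump 24 (1.21) and clump 4 (1.01). Their counting intervals all include 1, from 0.552 at the lowest bound to 40.8 at the highest. All 3 passed the filter through WT isoform 7 alone, where 1 site equals 1.27 per 100000, against 0.820 in WT isoform 1. The filter thus favours clumps high in isoform 7, and the numbers out of 16 do not by themselves show a direction. None of the 16 was at least 2-fold lower, where 21.8% of all clumps were. With no filter, 9 of 41 were higher, or 22.0% against 23.4% of all clumps, and 1 lower, or 2.44% against 8.36%. Some of the 9 had only 1 WT isoform 7 site against none. With I304N, 18 of 21 lay above 0, with a median of 0.47 against 0.21. Here 1 of 21 was at least 2-fold higher, clump 4 (log2 ratio 1.02), where 9.18% of all clumps were, and 1 was lower, clump 2 (log2 ratio -1.17), where 4.72% were. Both intervals include 1, and clump 4 passed the filter here through I304N isoform 7 alone. In WT the ratio of shares was 2.59 under the median-of-ratios scaling and 1.09 when each clump was counted once.

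FXR1 had few sites in the clusters. Its share was 0.170 times that of FXR2 (0.0200 to 0.651), 0.200 times that of WT isoform 7 (0.0239 to 0.745) and 0.342 times that of WT isoform 1 (0.0407 to 1.28). At the share of FXR2 its list would have held 11.8 sites here, and it held 2. In the stretch between, the FXR1 share was 1.37 times that of FXR2 (0.593 to 2.90), and over the rest of chromosome 6 it was 1.12 times (1.02 to 1.24). Its sites in the clusters were chr6:26189308-26189323 on the minus strand, 16 nt wide and in clump 20, and chr6:27776498-27776519 on the plus strand, 22 nt wide and in clump 32. Clump 20, chr6:26188970-26189330, was the only clump with a site of all 6 libraries: 1 of FXR1, 3 of FXR2, 6 of I304N isoform 7, 3 of WT isoform 7, 5 of I304N isoform 1 and 5 of WT isoform 1. Clump 32, chr6:27776320-27776559, had 1 site of FXR1, none of FXR2, 2 of I304N isoform 7, 2 of WT isoform 7, 3 of I304N isoform 1 and 2 of WT isoform 1.

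Single clumps were not compared between FXR1 and WT FMR1, because 1 site in the FXR1 list equals 11.1 per 100000, so that the scaling and the filter fix the direction of each clump read. Of the 17 clumps with FXR2, 1 also had FXR1, or 5.88%, against 22.8% of 17952 such clumps genome-wide. FXR1 had a site in only 2 clumps here, so its own low count caps this share. The share therefore cannot show whether FXR1 and FXR2 sites lie apart. All 4 FMR1 libraries had sites in 15 of those 17 clumps, or 88.2%, against 41.2% genome-wide. The 17 clumps all had at least 5 sites, and the gap was smaller at that size. Genome-wide, 7396 of 11273 FXR2 clumps with at least 5 sites had all 4 FMR1 libraries.

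FXR2 had a share 2.01 times that of WT isoform 1 (1.36 to 2.94) and 1.18 times that of WT isoform 7 (0.802 to 1.70). In the stretch between, the ratios were 0.969 (0.614 to 1.48) and 0.700 (0.441 to 1.08). Against WT isoform 1, 5 of the 15 clumps read were at least 2-fold higher, where 19.5% of all clumps were: clump 4 (log2 ratio 1.85), clumps 11, 21 and 41 (1.36 each) and clump 13 (1.34). None was at least 2-fold lower, where 14.3% were. Against WT isoform 7, 2 of 16 were higher, clump 13 (log2 ratio 1.53) and clump 20 (1.01), where 23.5% of all clumps were, and none was lower, where 9.46% were. The intervals of all these ratios include 1. A single site equals 2.90 per 100000 in FXR2, against 0.820 in WT isoform 1 and 1.27 in WT isoform 7. Clumps 4, 11, 21 and 41 passed the filter through FXR2 alone, as clump 20 did against WT isoform 7. The filter thus favours clumps high in FXR2, and the counts and medians of the clumps read do not show a direction. With no filter, 9 of 41 clumps were at least 2-fold lower in FXR2 than in WT isoform 7, or 22.0% against 34.6% of all clumps. All 9 had no FXR2 site and at most 3 sites of WT isoform 7. In that comparison 3 were higher, or 7.32% against 10.5%. Against WT isoform 1, 2 of 41 were lower, or 4.88% against 10.9%, and 7 higher, or 17.1% against 11.1%. The median log2 ratio of FXR2 to WT isoform 1 was 0.93 against 0.51 over all clumps, and to WT isoform 7 it was 0.37 against 0.78. The ratio to WT isoform 7 fell below 1, at 0.727, under the median-of-ratios scaling.

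Sites of different libraries overlapped more often in the clusters than outside them. Of the 45 FXR2 sites in the clusters, 42 were overlapped on the same strand by at least 1 nt by a site of I304N isoform 7, or 93.3% (81.7% to 98.6%), against 34.7% of FXR2 sites outside the clusters. WT isoform 7 overlapped 84.4% of them against 32.0% outside, I304N isoform 1 91.1% against 46.1%, and WT isoform 1 91.1% against 64.3%. Of WT isoform 1 sites in the clusters, 87.3% were overlapped by I304N isoform 1 (78.0% to 93.8%), against 44.5% outside. Of WT isoform 7 sites, 89.7% were overlapped by I304N isoform 7 (81.3% to 95.2%), against 49.7% outside. In the other direction the shares were lower, with more I304N than WT sites in the clusters: WT isoform 1 overlapped 49.2% of I304N isoform 1 sites (40.2% to 58.3%), against 41.6% outside, and WT isoform 7 overlapped 63.2% of I304N isoform 7 sites (53.3% to 72.4%), against 41.9%.

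Over the 20 ordered pairs without FXR1, the overlap was higher in the clusters than outside in all 20, and in 19 the intervals did not meet. The exception was I304N isoform 1 sites overlapped by WT isoform 1. The shares ran from 27.0% to 93.3% with a median of 72.5% in the clusters, against 11.3% to 75.9% with a median of 41.8% outside. Pairs share libraries, so they are not independent, and the outside shares are not matched for how much of a clump is covered. The FMR1 sites were wider and more crowded in the clusters, as given below, and the part of that in the overlap was not tested. The stretch between lay below the clusters in 19 of the 20 pairs. With FXR1 as the overlapping library the share was lower in the clusters in 5 of 5 cases, but the intervals were apart in only 1. There FXR1 overlapped 1 of 45 FXR2 sites, or 2.22% (0.0562% to 11.8%), against 19.4% of FXR2 sites outside. The 5 cases rest on the same 1 of the 2 FXR1 sites in the clusters, so they restate its low count. Merging all overlapping sites gave 142 regions in the clusters, of which 30, or 21.1%, had sites of at least 5 libraries, against 3.43% of 238086 regions genome-wide. The region with sites of all 6 was chr6:26189272-26189330 on the minus strand. Regions of a single library made up 52 of the 142, or 36.6%, against 55.3% genome-wide, and 1 each belonged to FXR1 and FXR2, 11 to I304N isoform 7, 4 to WT isoform 7, 28 to I304N isoform 1 and 7 to WT isoform 1.

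**Figure D4:**
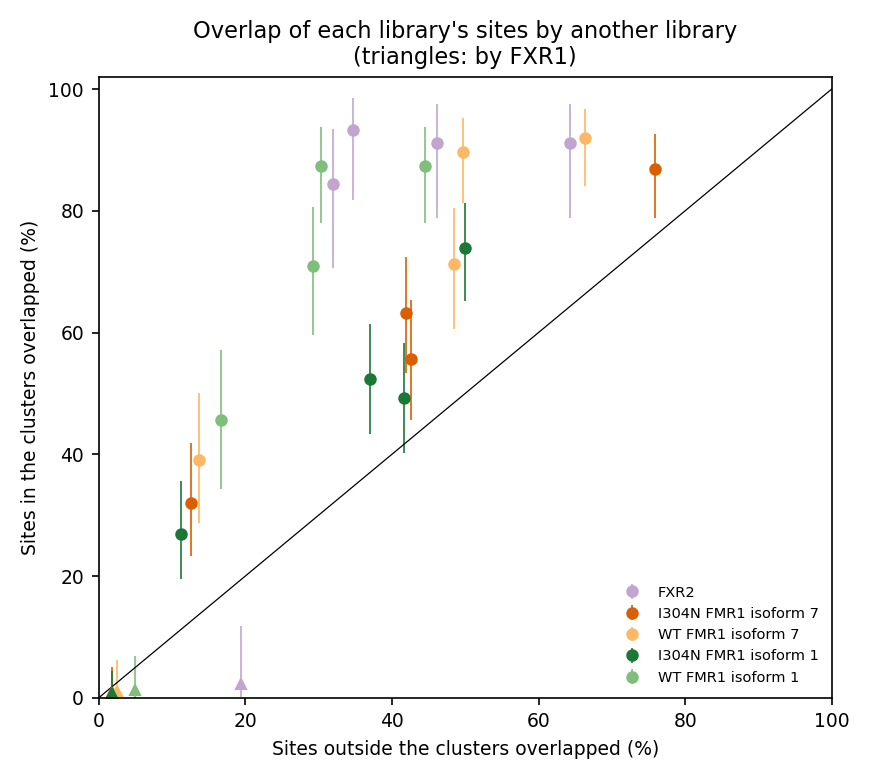
Share of a library's sites overlapped by another library in the histone clusters (vertical axis, %, with exact 95% Clopper-Pearson intervals) against the same share outside the clusters (horizontal axis, %), with 1 point per ordered pair, coloured by the library whose sites are counted. All 20 circles lie above the line of equality and the 5 triangles, overlap by FXR1, lie below it. In the clusters the triangles all rest on the same 1 FXR1 site.

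Sites in the clusters were wider than elsewhere in the FMR1 libraries. The median width in the clusters was 30 nt in I304N isoform 7, against 24 nt outside, and 27 nt in WT isoform 7, against 21 nt. It was 26 nt in I304N isoform 1, against 23 nt, 25 nt in WT isoform 1, against 24 nt, and 22 nt in FXR2, against 20 nt. Sites of at least 60 nt made up 20.8% of I304N isoform 7 sites in the clusters (13.5% to 29.7%), against 4.88% outside, and 10.3% of WT isoform 7 sites (4.84% to 18.7%), against 1.50%. They made up 15.9% of I304N isoform 1 sites (9.97% to 23.4%), against 4.84%, and 13.9% of WT isoform 1 sites (7.16% to 23.5%), against 6.35%. FXR2 had no site so wide among its 45.

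**Figure D5:**
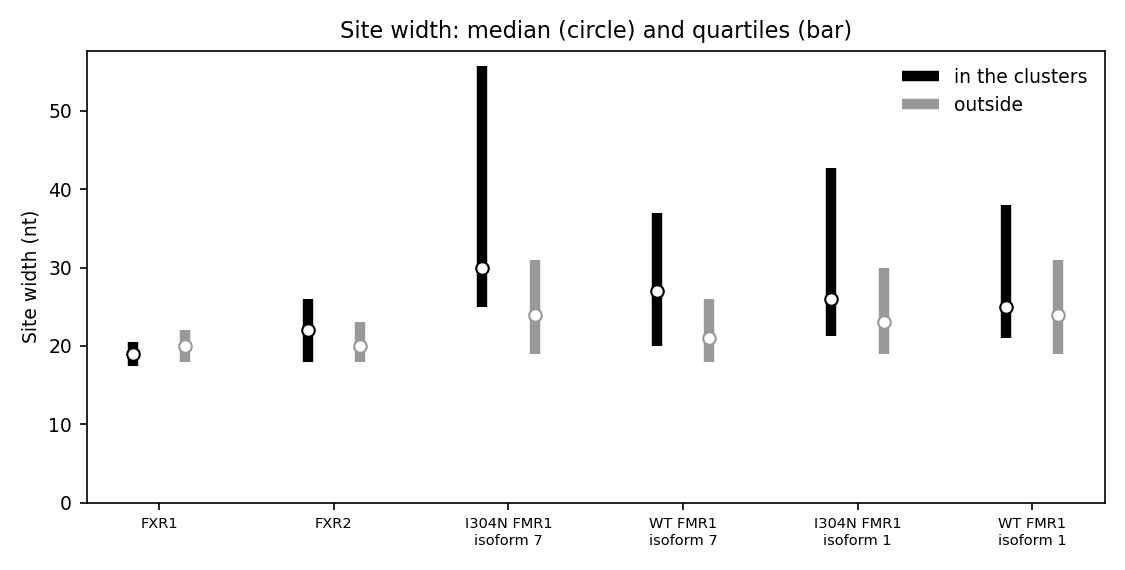
Width of sites (nt) in the histone clusters and outside them for each library; circles are medians and bars run from the lower to the upper quartile. In the 4 FMR1 libraries the upper quartile in the clusters, 37 to 55.75 nt, lies above that outside, 26 to 31 nt, and the FXR1 bar in the clusters rests on 2 sites.

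Counting covered bases in place of sites left FXR1 lowest but put FXR2 below both isoform 7 libraries. The sites covered 38 nt of the clusters in FXR1, 1043 nt in FXR2, 4646 nt in I304N isoform 7, 2851 nt in WT isoform 7, 4873 nt in I304N isoform 1 and 2737 nt in WT isoform 1. As a share of all bases covered by a list this was 0.0210% in FXR1, 0.145% in FXR2, 0.186% in I304N isoform 7, 0.156% in WT isoform 7, 0.131% in I304N isoform 1 and 0.0761% in WT isoform 1. On this scale I304N against WT gave 1.73 in isoform 1 and 1.19 in isoform 7, and FXR2 against WT isoform 7 gave 0.928. Of the 6716 nt spanned by the 16 shared clumps, FXR2 covered 14.9%, I304N isoform 7 59.6%, WT isoform 7 38.6%, I304N isoform 1 57.7% and WT isoform 1 37.9%. In each isoform the I304N sites thus covered more of the shared clumps than the WT sites, with 81 sites against 74 in isoform 7 and 83 against 70 in isoform 1.

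Along the 16 shared clumps, read in the direction of the strand and cut into 3 equal parts, no library kept to 1 end. The first of the 3 parts held 44.2% of FXR2 sites, 30.9% of those of I304N isoform 7, 37.8% of WT isoform 7, 27.7% of I304N isoform 1 and 30.0% of WT isoform 1. The last part held 30.2% of FXR2 sites (17.2% to 46.1%), 33.3% of I304N isoform 7 (23.2% to 44.7%), 25.7% of WT isoform 7 (16.2% to 37.2%), 36.1% of I304N isoform 1 (25.9% to 47.4%) and 37.1% of WT isoform 1 (25.9% to 49.5%). These intervals overlap. A clump runs from its first to its last site, so its ends are not the ends of a transcript.

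Sites in the clusters seldom stood alone. A site with no other of its own library within 1000 nt on the strand made up 8.89% of FXR2 sites in the clusters, against 29.3% outside, and 4.72% of I304N isoform 7 sites, against 16.3%. The shares were 5.75% against 28.7% in WT isoform 7, 5.56% against 15.4% in I304N isoform 1 and 6.33% against 12.8% in WT isoform 1. Both FXR1 sites stood alone. Few sites in the clusters were flagged as lying in a repeat: 1 of the 445 carried the repeat flag, or 0.225% (0.00569% to 1.25%), against 4.10% of sites outside. That site, chr6:26010537-26010551 on the plus strand, belonged to I304N isoform 1 and lay at the outer edge of the first cluster, where it formed clump 1 by itself.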

How the data were processed

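PAR-CLIP libraries of 6 protein forms, 1 each, were grouped by the immunoprecipitated protein in the labels. Per the submitters' processing notes, the aligner was Bowtie 0.12.7 and the build hg19. Which program called the sites is not given in the sources used here. The deposited score is a flag that is 1000 outside repeats and 0 in repeats, per the file headers, and the lists give positions without read counts.

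The regions and the settings were chosen with earlier results of these data known. Sites were assigned by midpoint. Clumps joined same-strand sites of all libraries at gaps of at most 200 nt. Clumps named are the 12 with the highest mean scaled site number, those in at least 5 libraries, and the 3 highest and 3 lowest per comparison; others are said to be picked. FXR1 against FXR2, and 3 of the alternatives, were added after the data were seen. For clumps, site numbers were scaled to 100000 with a pseudocount of 1 and a filter at a mean of 2. Shares carry Clopper-Pearson and ratios exact conditional 95% intervals. The counting was tested on simulated data. Python 3.11.15, pandas 2.3.3, numpy 2.4.6, scipy 1.17.1 and matplotlib 3.10.9 were used. A count of 0 allows 3 sites. Counts by histone family were planned for an hg19 annotation and were not analysed here.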

Additional observations from a re-analysis of the deposited data

How the results depend on the processing

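The ratios of cluster shares were recomputed under 9 settings for each of 9 comparisons, and 75 of 81 alternatives stayed within the counting interval. Under median-of-ratios scaling, I304N against WT in isoform 1 was 2.29, isoform 7 against isoform 1 in WT was 2.59 and FXR2 against WT isoform 7 was 0.727. Counting each clump once, a setting chosen after seeing the data, gave 1.09 for I304N against WT in isoform 1 and 1.09 for isoform 7 against isoform 1 in WT, which was 1.22 with sites joined within 50 nt. The causes were not tested. I304N against WT in isoform 7 ranged from 0.984 to 1.33, FXR1 against FXR2 from 0.103 to 0.378, FXR1 against WT isoform 7 from 0.0981 to 0.597 and FXR1 against WT isoform 1 from 0.222 to 0.651. A gap of at most 50 nt gave 72 clumps in place of 41. The numbers of clumps past 2-fold, which are 0 to 5 without the FXR1 comparisons, moved by over 1.5 times in 25 of 48 alternatives. Overlap shares stayed within their intervals in 72 of 72 alternatives. No paired analysis was possible because each protein form has 1 library. With 2 sites, FXR1 sets the precision of its ratios.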
